A study of Mus musculus with 20 samples.

Results

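The mitochondrial ribosomal protein genes were examined in ventricular RNA of mice lacking the *de novo* DNA methyltransferases in cardiomyocytes and of their controls, 4 weeks after pressure overload or sham surgery. Members were all array probes annotated to a gene symbol made of Mrpl or Mrps directly followed by a number, and this rule found 132 of 45281 probes, naming 76 of 19057 genes. By symbol, 83 probes of 48 genes belonged to the large ribosomal subunit (Mrpl) and 49 probes of 28 genes to the small subunit (Mrps). Male mice of 4 groups were compared, with 1 array per mouse, namely 6 TAC DKO, 6 TAC CTL, 4 sham DKO and 4 sham CTL hearts. All mice were homozygous for floxed *Dnmt3a* and *Dnmt3b* alleles. DKO mice in addition carried Cre under the atrial myosin light chain promoter (MLC2a, *Myl7*), which removes the catalytic exons in cardiomyocytes, and CTL mice carried no Cre. TAC, transverse aortic constriction, narrows the aorta and raises the load on the left ventricle, and it was performed at 10 to 12 weeks of age. Since RNA came from whole ventricular tissue, fewer cells of a type and less RNA per cell cannot be told apart, and non-myocytes keep both methyltransferases in DKO hearts.

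Mitochondrial ribosomes translate the few proteins that are encoded by mitochondrial DNA, all of them subunits of the respiratory chain and of ATP synthase. Their own proteins are encoded in the nucleus, made in the cytosol and imported. The large subunit forms the peptide bond, and the small subunit binds the messenger RNA and decodes it. A part of the proteins descends from the bacterial ribosome and keeps its numbering, whereas the others were added during the evolution of mitochondria. Cardiomyocytes are packed with mitochondria and depend on oxidative phosphorylation for contraction.

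On these arrays, each value is the intensity of 1 probe. A probe was taken as above background in a group when its mean exceeded the 95th percentile of 1540 probes for olfactory, vomeronasal and taste receptors, which lay between 56.4 and 60.9 in the 4 groups. Of the members, 112 probes naming 74 genes were above background in at least 1 group and 20 were not. *Mrpl19* and *Mrpl32* had no probe above it. The authors had normalized the 12 TAC arrays apart from the 8 sham arrays, with a median intensity of 58.6 on TAC and 47.5 on sham arrays, so that a difference between TAC and sham hearts cannot be told apart from a difference between these sets. The *Dnmt3a* probes lay at background in all groups, and *Dnmt3a* and *Dnmt3b* showed no genotype difference that passed the test (adjusted p between 0.751 and 0.999 from limma). Where these probes lie relative to the deleted exons is not known here, so they check nothing. Of 21 cardiomyocyte marker probes, 18 were above background in TAC hearts and 17 in sham hearts.

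The promoters of 5 members are shown because these genes carried the changes described further on, a genotype difference (*Mrpl37*), falls after TAC (*Mrpl52*, *Mrps15*) and rises after TAC (*Mrpl53*, *Mrps10*). The deleted enzymes methylate CpGs, in promoters and elsewhere. No methylation values of these promoters were used here. Each is the stretch of 250 bases before the start of the gene, written 5′ to 3′ along its strand (RefSeq, GRCm38.p6). Capitals mark matches, on either strand, to GCGCA and GCGC with any 1 base between them (nuclear respiratory factor 1), CCGGAAG (ETS factors, among them GABP), AAGATGGCG (YY1) and GGGCGG (SP factors), which are motifs of regulators of nuclear genes for mitochondrial proteins.
*Mrpl37*, chr4:107066867-107067116, minus strand: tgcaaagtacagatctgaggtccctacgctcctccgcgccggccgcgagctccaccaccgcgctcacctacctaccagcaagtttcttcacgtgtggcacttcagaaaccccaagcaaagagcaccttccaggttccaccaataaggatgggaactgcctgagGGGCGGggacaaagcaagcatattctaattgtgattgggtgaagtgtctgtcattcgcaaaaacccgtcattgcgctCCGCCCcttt
*Mrpl52*, chr14:54426659-54426908, plus strand: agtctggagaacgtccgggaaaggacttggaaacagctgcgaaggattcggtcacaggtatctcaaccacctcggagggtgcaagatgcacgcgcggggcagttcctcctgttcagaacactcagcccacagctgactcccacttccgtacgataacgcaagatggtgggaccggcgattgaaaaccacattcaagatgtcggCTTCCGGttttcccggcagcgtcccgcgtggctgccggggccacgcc
*Mrps15*, chr4:126046678-126046927, plus strand: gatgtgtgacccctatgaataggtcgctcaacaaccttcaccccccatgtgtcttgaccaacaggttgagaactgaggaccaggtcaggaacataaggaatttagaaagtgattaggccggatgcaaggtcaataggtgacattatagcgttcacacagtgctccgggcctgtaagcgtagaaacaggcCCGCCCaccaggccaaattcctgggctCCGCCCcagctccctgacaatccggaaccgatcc
*Mrpl53*, chr6:83108858-83109107, plus strand: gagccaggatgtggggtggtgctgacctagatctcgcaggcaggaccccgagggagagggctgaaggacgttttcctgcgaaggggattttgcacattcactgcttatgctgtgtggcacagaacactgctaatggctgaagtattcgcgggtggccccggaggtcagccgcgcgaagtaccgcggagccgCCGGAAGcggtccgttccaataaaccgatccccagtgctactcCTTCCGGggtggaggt
*Mrps10*, chr17:47368947-47369196, plus strand: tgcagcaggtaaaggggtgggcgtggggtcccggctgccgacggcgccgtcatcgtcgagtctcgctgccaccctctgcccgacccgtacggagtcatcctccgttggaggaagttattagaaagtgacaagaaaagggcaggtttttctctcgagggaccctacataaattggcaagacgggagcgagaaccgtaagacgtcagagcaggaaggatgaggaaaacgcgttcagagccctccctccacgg

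*Mrpl53* held 2 ETS matches and *Mrpl52* held 1, whereas *Mrpl37* and *Mrps15* held 2 SP matches each and *Mrps10* had no match to these letters. Their stretches contained 14 CpGs in *Mrpl37*, 21 in *Mrpl52*, 9 in *Mrps15*, 18 in *Mrpl53* and 21 in *Mrps10*. Promoter sequence was found for 67 of the 76 member genes, in 73 windows. The ETS letters occurred in 24.7% of the member windows and in 6.91% of 32851 windows of the same length over all genes. The nuclear respiratory factor letters occurred in 13.7% and 3.74%, the SP letters in 49.3% and 32.7%, and the YY1 letters in 2.74% and 0.606%. All 4 motifs contain a CpG, in which the member windows were rich, with a median of 17 CpGs against 6 over all windows. Of the 13 genes whose probes all rose after TAC in both genotypes, 12 had a promoter here, and 4 of these held an ETS match. Among 14 genes whose probes all fell, 12 had a promoter and 3 held one. A match of letters is no proof of a bound site.

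After TAC, a set of members fell in both genotypes, at a share near that of all probes above background. In TAC DKO compared with sham DKO hearts, 30 of the 132 members were lower at an adjusted p under 0.05, against 12.7% of all probes, and 14 of them by more than 1.5-fold (4.27% of all probes). In TAC CTL compared with sham CTL hearts 25 members were lower, against 10.2% of all probes, and 11 by more than 1.5-fold (3.4%). Members were measured above background more often than other probes. Among the 21160 probes above background, 23.4% were lower in DKO hearts and 19.1% in CTL hearts. Of the 112 members above background, 30 were lower in DKO and 25 in CTL hearts (22.3% in CTL), not far from these shares. By more than 1.5-fold, 9.14% and 7.28% of the probes above background were lower, against 14 and 11 of the 112 members. All 25 falls in CTL hearts and 29 of the 30 in DKO hearts also passed with the values as deposited, with the arrays aligned by subtraction of a constant background and with the arrays centred on their medians. The exception was *Mrpl3* probe ILMN_2571191, whose mean was at background in TAC DKO hearts. Subtraction and centring moved the members downward, to a median of -0.09 and -0.32 in DKO and of -0.07 and -0.30 in CTL hearts. With quantile normalization the medians were 0.03 in DKO and 0.04 in CTL hearts. Both scalings therefore favoured falls, and passing under them is a weak check. Individual hearts were separate for 23 lower and 28 higher members in TAC DKO against sham DKO hearts (20.5% of all probes were separate in either direction), and for 21 lower and 21 higher members in TAC CTL against sham CTL hearts (16.1%). These shares include the probes at background, which are a smaller part of the members, so the members cannot be ranked by them.

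The largest fall was that of *Mrpl13*, the counterpart of a bacterial large subunit protein. Its probe ILMN_2982200 had a lowest, median and highest intensity of 89.8, 113 and 131 in TAC DKO hearts, against 305, 328, 341 and 354 in sham DKO hearts. In TAC CTL hearts it had 113, 130.4 and 158, against 331, 347, 394 and 485 in sham CTL hearts. No TAC heart reached the level of any sham heart, and the log2 fold change was -1.57 in DKO (SE 0.11, adjusted p = 8.8e-10 from limma) and -1.55 in CTL (SE 0.11, adjusted p = 1.93e-09). *Mrpl52*, a large subunit protein that bacteria lack, had 328, 359.6 and 427 in TAC DKO hearts, against 918, 977, 990.3 and 1142 in sham DKO hearts. It had 361, 416 and 486 in TAC CTL hearts, against 950.3, 960.3, 972 and 1422 in sham CTL hearts. Again the groups were separate, with 1 sham CTL heart standing above the other 3. The log2 fold change of *Mrpl52* was -1.44 in DKO (SE 0.11, adjusted p = 2.08e-09) and -1.35 in CTL (SE 0.11, adjusted p = 8.06e-09). *Mrps15*, a protein of the small subunit with a bacterial counterpart, had 119, 145 and 168 in TAC DKO hearts on probe ILMN_1224268, against 305, 383, 387 and 389 in sham DKO hearts. It had 139, 143 and 181 in TAC CTL hearts, against 331, 338, 363 and 414 in sham CTL hearts. Its log2 fold change was -1.38 in DKO and -1.23 in CTL (SE 0.11 each). A second *Mrps15* probe, ILMN_2593872, fell by 0.75 in CTL hearts (SE 0.12), to a TAC CTL mean of 62.5, close to the background of 59.3. In TAC DKO hearts its mean was at background, with 1 of 6 arrays above it, so that it was at least 1.43-fold lower than in sham DKO hearts (fitted adjusted p = 6.27e-05).

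*Mrpl39*, another large subunit protein without a bacterial counterpart, had 66.2, 84.1 and 91.2 in TAC DKO hearts, against 145, 148, 152 and 166 in sham DKO hearts. It had 74.6, 82.1 and 91.7 in TAC CTL hearts, against 174, 188, 203 and 205 in sham CTL hearts. TAC hearts of both genotypes shared 1 low range, and the log2 fold change was -0.90 in DKO and -1.22 in CTL (SE 0.08 each). *Mrps18c* fell by 1.13 in DKO and by 1.04 in CTL, *Mrpl20* by 1.13 and 0.98, and *Mrpl16*, whose bacterial counterpart lies next to the site of peptide bond formation, by 1.08 and 0.93 on the log2 scale. *Mrpl18* encodes the counterpart of a bacterial protein that binds 5S ribosomal RNA. Its probe ILMN_2823250 was at background in TAC DKO hearts, so that its fall there is only bounded, at least 1.66-fold lower than in sham DKO hearts (fitted adjusted p = 3.55e-08). In CTL hearts this probe fell by 0.97 on the log2 scale, to a TAC CTL mean of 61.4, close to the background of 59.3. The brighter *Mrpl18* probe ILMN_2659762 did not pass in either genotype (-0.08 in DKO and 0.11 in CTL). *Mrps25* probe ILMN_1246044 (-0.99 in DKO and -0.86 in CTL) was past 1.5-fold in both genotypes. *Mrpl47* probe ILMN_1226238 fell by 0.63 in CTL hearts, to a TAC CTL mean of 63.6, also close to background. In TAC DKO hearts, where its mean was at background with 2 of 6 arrays above it, it was at least 1.48-fold lower than in sham DKO hearts (fitted adjusted p = 2.48e-06). *Mrpl37* probe ILMN_2751709 (-0.69), *Mrps2* (-0.61) and *Mrps21* (-0.59, named after its value was seen) were past it in DKO hearts, where *Mrps35* had -0.57 (adjusted p = 0.000131), against -0.55 in CTL hearts.

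**Figure D1:**
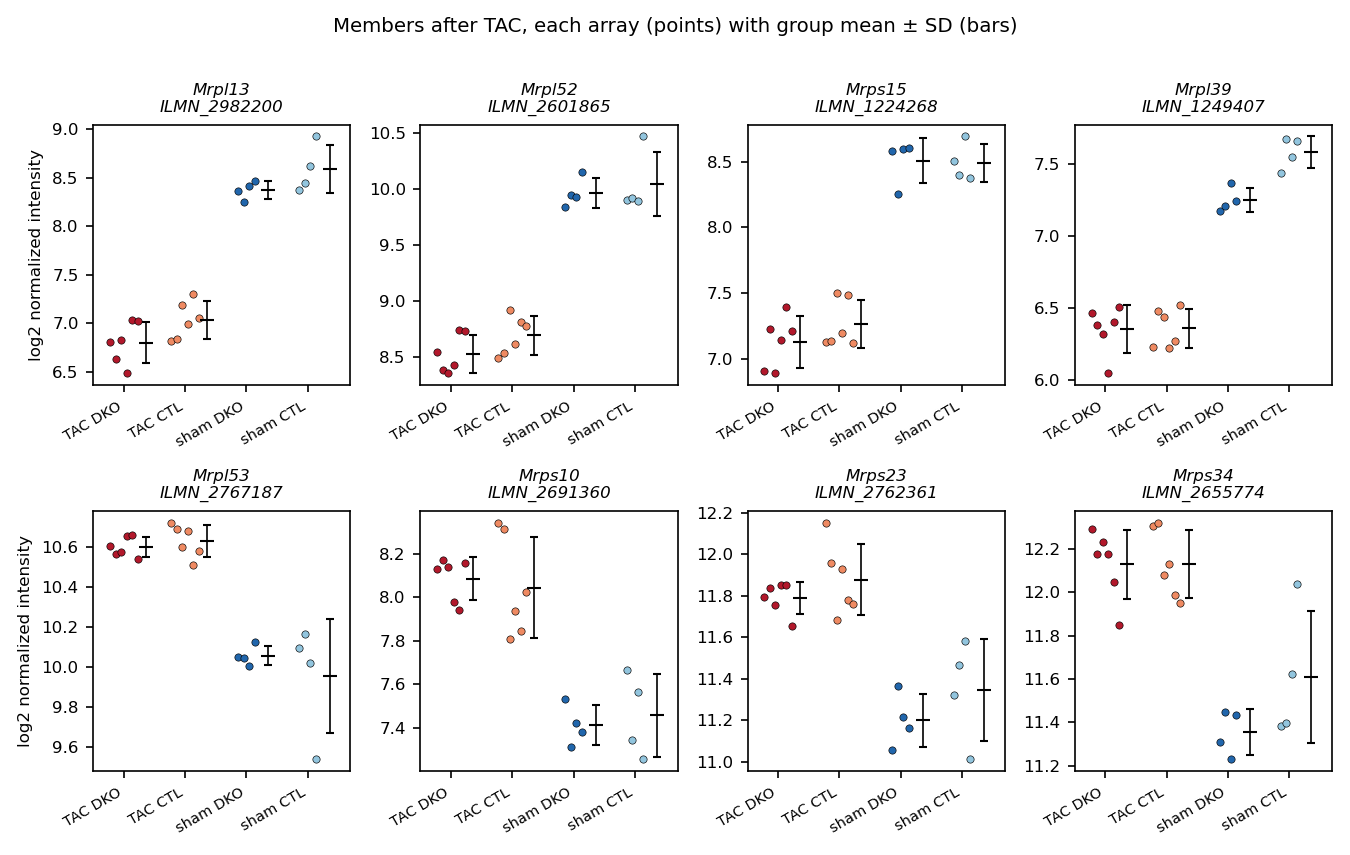
Log2 normalized intensity of 8 members on each array (points), with the mean ± SD of the group beside them. The 4 members of the upper row lie lower in TAC hearts than in any sham heart, and those of the lower row lie higher in TAC hearts, with 1 overlapping sham CTL heart for *Mrps34*.

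Other members were higher after TAC, by smaller amounts and with a strong dependence on how the arrays were scaled. In TAC DKO hearts 33 members were higher than in sham DKO hearts at an adjusted p under 0.05, against 15.4% of all probes, and 3 by more than 1.5-fold (2.46%). In TAC CTL hearts 30 members were higher, against 11.7% of all probes, and 2 by more than 1.5-fold (1.76%). Among probes above background, 26.8% were higher in DKO and 22.2% in CTL hearts. Of the 112 members above background, 32 were higher in DKO and 30 in CTL hearts (26.8% in CTL), again not far from these shares. By more than 1.5-fold, 5.27% and 3.77% of the probes above background were higher, against 3 and 2 of the 112 members. All these calls rest on quantile normalization over the 20 arrays. With the values as deposited, 22 of the 33 rises in DKO hearts and 19 of the 30 in CTL hearts kept their call, and with a constant background subtracted from each array 15 and 12 did. With the arrays centred on their medians 3 and 0 kept it, and the members past the test were 4 higher and 79 lower in DKO and 0 higher and 68 lower in CTL hearts, against 33 and 30 in DKO and 30 and 25 in CTL hearts with quantile normalization. With subtraction they were 15 higher and 43 lower in DKO and 12 higher and 35 lower in CTL hearts. The rises are therefore given here relative to the distribution of all probes.

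*Mrps34*, a small subunit protein specific to mitochondria, was the member with the largest rise in DKO hearts. It had a lowest, median and highest intensity of 3689, 4636 and 5021 in TAC DKO hearts, against 2401, 2542, 2768 and 2793 in sham DKO hearts. In TAC CTL hearts *Mrps34* had 3960.3, 4413 and 5121, against 2671, 2699, 3151 and 4206 in sham CTL hearts. The DKO groups were separate, while 1 sham CTL heart lay within the TAC CTL range. The log2 fold change was 0.77 in DKO (SE 0.11, adjusted p = 9.27e-06) and 0.52 in CTL (SE 0.11, adjusted p = 0.00111), and in DKO hearts it was one of the 3 rises that passed under all 4 scalings, at 0.31 with median centring. The others were *Mrps25* probe ILMN_1239357, at background in all groups, and the dim *Mrpl38* probe ILMN_2544278 (mean of 92.3 in TAC DKO hearts). The brighter *Mrpl38* probe did not pass. *Mrpl53*, a large subunit protein specific to mitochondria, had 1489, 1539 and 1615 in TAC DKO hearts, against 1028, 1058, 1062 and 1116 in sham DKO hearts. It had 1457, 1593 and 1687 in TAC CTL hearts, against 744, 1038, 1094 and 1147 in sham CTL hearts. TAC and sham hearts did not overlap in either genotype, and the log2 fold change was 0.54 in DKO and 0.67 in CTL (SE 0.08 each, adjusted p = 2.91e-05 and 2.52e-06). *Mrps10*, the counterpart of a bacterial small subunit protein, was measured above background by 3 probes, and all of them rose, by 0.33 to 0.67 in DKO and by 0.48 to 0.59 in CTL hearts. On its probe ILMN_2691360 the intensities were 246, 281 and 288 in TAC DKO hearts, against 159, 167, 172 and 185 in sham DKO hearts, and 224, 253 and 325 in TAC CTL hearts, against 153, 163, 189.5 and 203 in sham CTL hearts.

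*Mrps23* probe ILMN_2762361 (0.59 in DKO and 0.53 in CTL), *Mrpl34* (0.48 and 0.50) and *Mrpl12* (0.46 and 0.46), which in human cells also binds the mitochondrial RNA polymerase, rose in both genotypes. So did *Mrpl40* (0.46 and 0.41), *Mrps12* probe ILMN_1254734 (0.43 and 0.55), *Mrps22* (0.51 and 0.35) and *Mrpl11* (0.51 and 0.37), with adjusted p between 1.28e-05 and 0.00814. The bacterial counterpart of *Mrps12* takes part in decoding. The other probe above background did not pass in either genotype for *Mrps23* (ILMN_2909068, 0.05 in DKO and 0.18 in CTL) or for *Mrps12* (ILMN_2777706, -0.10 and 0.12). With median centring *Mrpl40* lay at -0.03 in DKO and -0.08 in CTL hearts, *Mrpl12* at -0.01 and 0.00, and *Mrps23* at 0.13 and 0.07, none of them past the test. In all, 22 of the 33 rises in DKO and 20 of the 30 in CTL hearts had a negative value with median centring, among them *Mrps12* in DKO (-0.03), *Mrps22* (-0.13) and *Mrpl11* (-0.10) in CTL, and *Mrps25* probe ILMN_1239113 in both (-0.10 each). *Mrpl1* probe ILMN_2711966 was higher in DKO hearts (0.46, adjusted p = 0.00129), whereas it had 0.25 in CTL hearts (adjusted p = 0.0852). The other *Mrpl1* probe above background, ILMN_2747281, went the other way. It was lower in CTL hearts (-0.34) and had -0.19 in DKO hearts, where it did not pass.

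**Figure D2:**
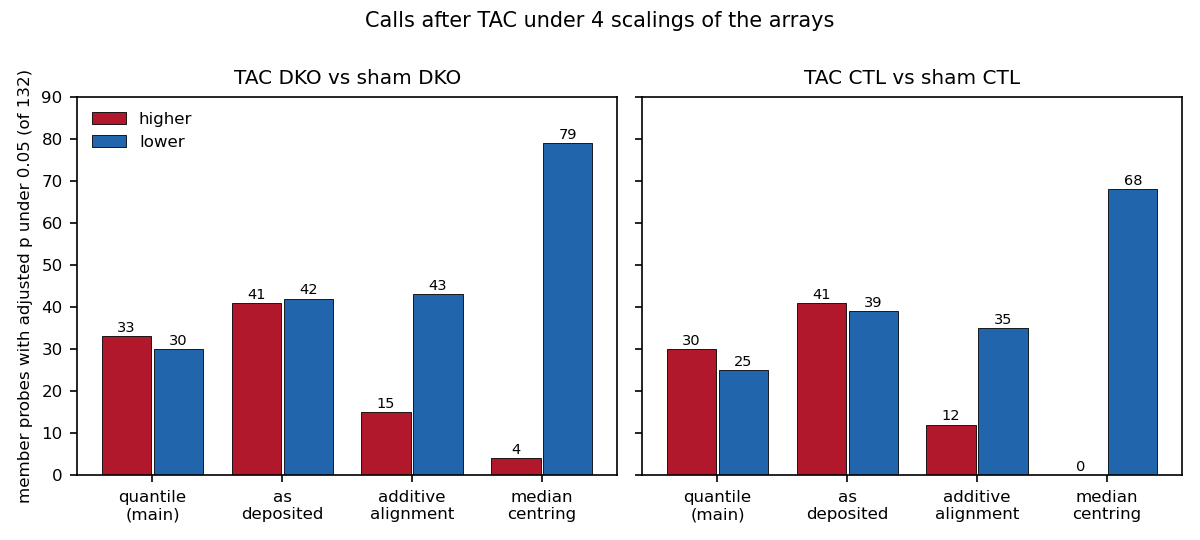
Number of the 132 members higher (red) and lower (blue) at an adjusted p under 0.05 in TAC DKO compared with sham DKO hearts (left) and in TAC CTL compared with sham CTL hearts (right), under 4 scalings of the arrays. With median centring the members higher are 4 and 0, against 33 and 30 with quantile normalization.

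The TAC effects of the members had the same direction in both genotypes wherever both passed the test. Of the members, 25 were higher and 24 lower in both DKO and CTL hearts, and none changed in opposite directions. Another 8 higher and 6 lower members passed in DKO hearts alone, and 5 higher and 1 lower in CTL hearts alone, but a call in 1 genotype does not show a difference between them. The test of that difference in limma, the interaction of genotype and TAC, was passed by 0 of the 132 members, and by 0.00221% of all probes. Its smallest p belonged to *Mrpl39*, with a difference of 0.33 between the TAC effects (DKO minus CTL, SE 0.12, adjusted p = 0.939), to *Mrps11* probe ILMN_2681946 (-0.34, SE 0.13) and to *Mrpl37* probe ILMN_2751709 (-0.39, SE 0.16). Across probes, which are not independent, the TAC effects in DKO and CTL hearts had a Pearson correlation of 0.953 over the 132 members and of 0.906 over all 45281 probes. Both effects run between the same 2 separately normalized sets.

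**Figure D3:**
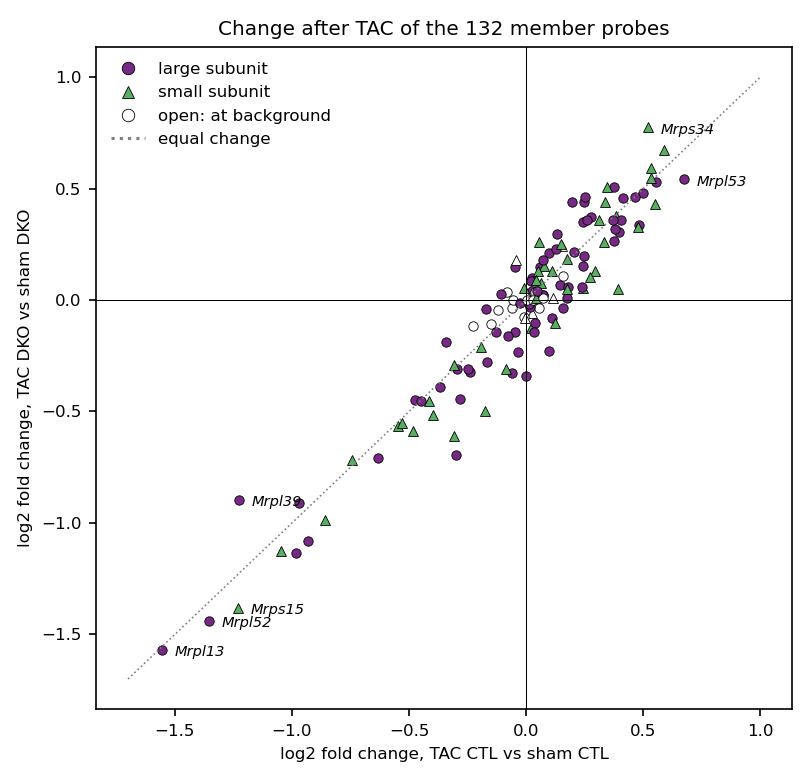
Log2 fold change after TAC in DKO hearts (vertical axis) and in CTL hearts (horizontal axis) for the 132 member probes, with large subunit members as circles, small subunit members as triangles, and probes at background unfilled. The dotted line marks equal change, and the largest falls, *Mrpl13*, *Mrpl52* and *Mrps15*, lie at the lower left.

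Different probes of the same gene did not always show the same change after TAC. Of the 74 genes above background, 26 had 2 or more such probes. In DKO hearts 3 of these, *Mrpl3*, *Mrpl49* and *Mrps25*, had probes that passed in opposite directions (11.5%, against 13.1% of 4301 genes with several probes over the whole array), and in CTL hearts 2 did, *Mrpl49* and *Mrps25* (7.69%, against 9.28%). The median distance between the highest and the lowest probe of a gene was 0.44 on the log2 scale in DKO and 0.35 in CTL hearts, whereas it was 0.12 for the genotype effect after TAC and 0.14 in sham hearts. *Mrpl13* showed the widest distance. Besides the probe that fell by 1.57 and 1.55, its probe ILMN_2982192 had a log2 fold change of 0.04 in both genotypes (adjusted p = 0.794 and 0.802). For *Mrpl18*, the second probe had -0.08 in DKO and 0.11 in CTL hearts. *Mrps25* fell on probe ILMN_1246044 and rose on probe ILMN_1239113 (0.38 in both genotypes). *Mrpl15* was represented by 7 probes, of which ILMN_1233595 rose by 0.53 in DKO and 0.55 in CTL hearts, while the other 6 lay between -0.03 and 0.07 in DKO hearts and between -0.08 and 0.24 in CTL hearts, where ILMN_1244650 (0.24, adjusted p = 0.0114) passed as well. The direction for a gene with several probes is therefore that of the named probe. The positions of the probes in their transcripts were not used here, and what the differences reflect was not tested. Among the 74 genes, all probes above background were lower in both genotypes for 14 genes, of which only *Mrps15* had more than 1 such probe, and higher in both for 13, of which *Mrps10* and *Mrpl33* had more than 1.

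**Figure D4:**
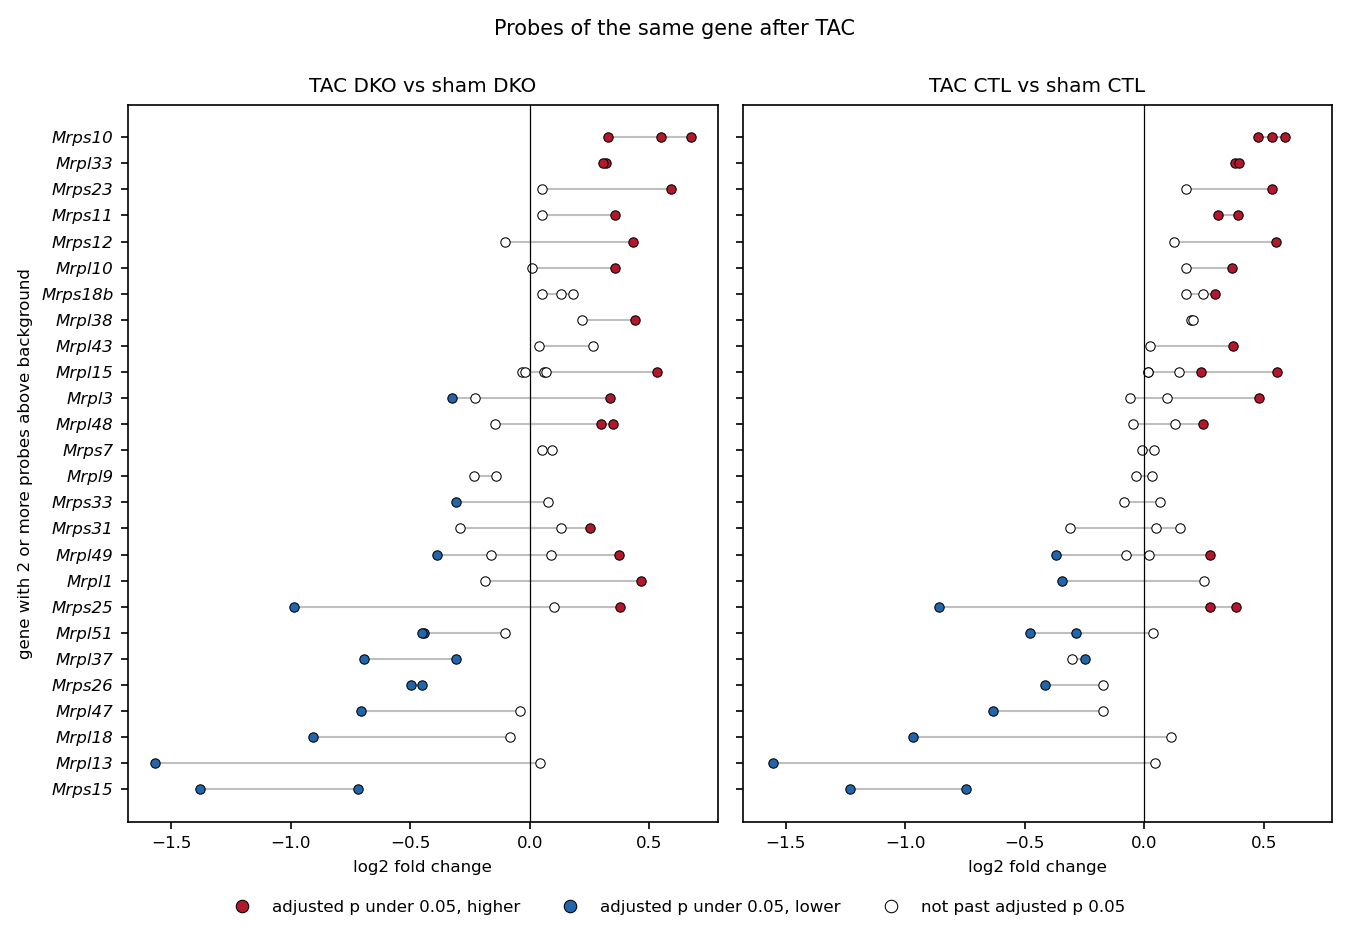
Log2 fold change after TAC of each probe (points) of the 26 member genes with 2 or more probes above background, in DKO hearts (left) and CTL hearts (right), with a grey line joining the probes of a gene. Filled points passed an adjusted p of 0.05, red for higher and blue for lower, and *Mrpl13*, *Mrps25* and *Mrpl18* show the longest lines in CTL hearts.

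Calls in both directions occurred in both subunits, beside 26.8% higher and 23.4% lower of all probes above background in DKO and 22.2% higher and 19.1% lower in CTL hearts. Of 69 large subunit probes above background, 19 were higher and 17 lower in TAC DKO hearts, and 16 were higher and 15 lower in TAC CTL hearts. Of 43 small subunit probes, 13 were higher and 13 lower in TAC DKO hearts, and 14 were higher and 10 lower in TAC CTL hearts. *Mrps18a* and *Mrps30* are counted with the small subunit by symbol, although in structures of the mammalian ribosome they lie in the large one. Grouped by their numbers, members with a bacterial counterpart had 18 higher and 14 lower of 62 in DKO and 19 higher and 13 lower in CTL hearts. Those without one had 14 higher and 16 lower of 50 in DKO, and 11 higher and 12 lower in CTL hearts. The grouping goes by number alone and can misplace members. *Mrpl47*, for example, is related to a bacterial protein but falls in the second group. The median change of all 132 members was 0.03 in DKO and 0.04 in CTL hearts, beside 0.02 and 0.01 over all probes.

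Between the genotypes, 1 member differed after TAC. *Mrpl37* encodes a large subunit protein that bacteria lack, and its probe ILMN_1254715 was lower in TAC DKO hearts, the only one of 132 members at an adjusted p under 0.05, against 0.316% of all probes in either direction and 0.0618% lower. It had a lowest, median and highest intensity of 1077, 1192 and 1247 in TAC DKO hearts, against 1299.7, 1421 and 1577 in TAC CTL hearts. The groups did not overlap, and the log2 fold change was -0.27 (SE 0.05, adjusted p = 0.0237 from limma), less than 1.5-fold. Its second probe, ILMN_2751709, had 291, 333 and 390.3 in TAC DKO hearts, against 392, 443 and 517 in TAC CTL hearts, a log2 fold change of -0.44 (SE 0.10, adjusted p = 0.053). These were the 2 members whose groups did not overlap after TAC, where 0.554% of all probes had separate groups. In sham hearts the first probe had 1396, 1433, 1496 and 1519 in DKO, against 1584, 1665, 1688 and 1816 in CTL mice, again without overlap and without passing the test (-0.21, SE 0.07, adjusted p = 0.63). The second probe had 487, 521, 563 and 575 in sham DKO hearts, against 406, 585, 609 and 653 in sham CTL hearts, which overlapped through 1 CTL heart. *Mrpl37* probe ILMN_1254715 did not pass when TAC CTL replicate 2 or 6 was left out, when TAC DKO replicate 1, 3 or 4 was left out (adjusted p of 0.0525 to 0.0823 in these 5 fits), with only the 2 groups in the fit (0.0807) and with an intensity trend in the prior variance (0.15). Over 28 settings its adjusted p ranged between 0.0087 and 0.15, and that of the second probe between 0.00548 and 0.173.

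*Mrpl20*, the counterpart of a bacterial large subunit protein, had 445, 492 and 528 in TAC DKO hearts, against 525, 624 and 722 in TAC CTL hearts. The ranges overlapped by 1 heart of each group, and the log2 fold change of -0.37 did not pass (SE 0.08, adjusted p = 0.0615, and between 0.02 and 0.192 over the settings). *Mrps26* (-0.33), *Mrps27*, a pentatricopeptide repeat protein (-0.30), and *Mrpl55* (-0.30) had the next largest differences downward, and *Mrpl38* (0.21), *Mrpl48* (0.15 and 0.12 on its probes), *Mrpl49* (0.14) and *Mrps17* (0.10) those upward, none of them past the test. Small differences ran mostly one way, and 86 of the 112 members above background had a negative log2 fold change (76.8%, against 54.3% of all probes above background), with a median of -0.06 against -0.01. The mean deviation of the members on each array from their mean over all arrays lay between -0.09 and 0.02 on the TAC DKO arrays and between -0.02 and 0.07 on the TAC CTL arrays, so the groups overlapped. No p is attached to this count, since members share arrays and are not independent. Of 18 cardiomyocyte marker probes above background, 14 were negative in the same comparison (77.8%, median -0.12), and all 5 atrial marker probes were positive (median 1.24), none past the test. The part of these markers in the members' differences was not tested.

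**Figure D5:**
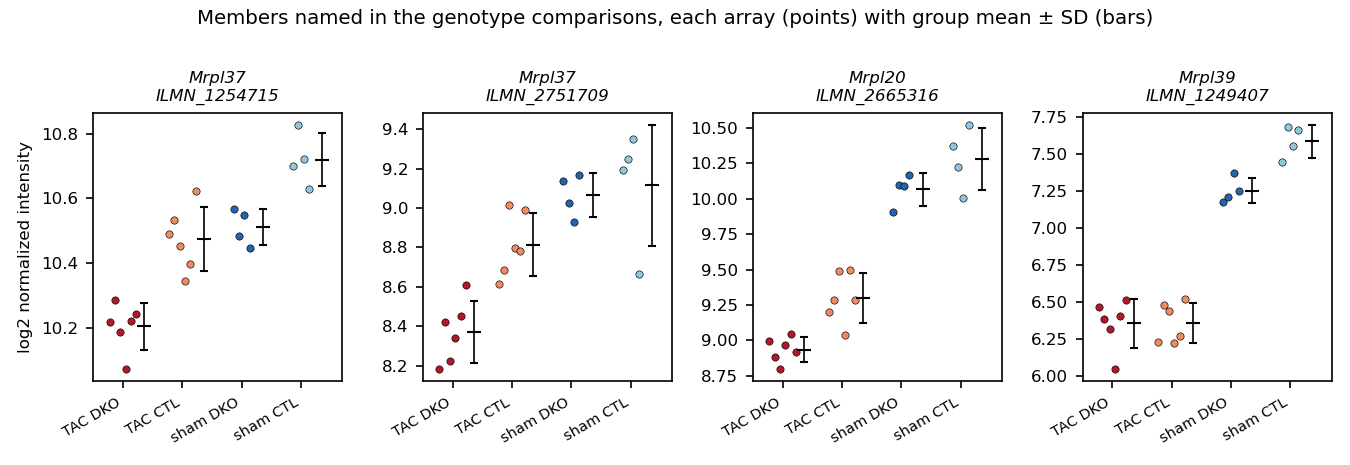
Log2 normalized intensity of both *Mrpl37* probes, of *Mrpl20* and of *Mrpl39* on each array (points), with the mean ± SD of the group beside them. Both *Mrpl37* probes lie lower in every TAC DKO heart than in any TAC CTL heart, and *Mrpl39* lies lower in every sham DKO heart than in any sham CTL heart.

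In sham hearts no member differed between the genotypes. With 4 hearts in each group, 0 of 132 members passed an adjusted p of 0.05, against 0.119% of all probes. At an unadjusted p under 0.05 from limma, 1 member was higher and 8 were lower. Of all 45281 probes, 2514 passed that threshold, 1212 higher and 1302 lower. The lowest adjusted p was that of *Mrpl39*, with 145, 148, 152 and 166 in sham DKO hearts, against 174, 188, 203 and 205 in sham CTL hearts. Its groups did not overlap, and the log2 fold change was -0.33 with a 95% confidence interval of -0.52 to -0.14 (adjusted p = 0.359). After TAC the same probe had a genotype difference of -0.00425 (adjusted p = 0.992). *Mrps9* had 1116, 1193, 1253 and 1311 in sham DKO hearts, against 1333, 1387, 1447 and 1656 in sham CTL hearts, and a log2 fold change of -0.25 (adjusted p = 0.664). *Mrps34* (-0.25), *Mrpl14* (-0.23) and *Mrpl13* (-0.22) followed, and *Mrpl51* (0.22), *Mrpl3* (0.22 and 0.20 on 2 probes), *Mrpl57* (0.19) and *Mrps33* (0.18) had the largest differences upward. The value of *Mrpl3* probe ILMN_1231390 rests on sham CTL replicate 4, where it had 288, against 691 to 796 in the other sham CTL hearts. Without that heart its difference was -0.15. In all, 4 members had separate groups, each lower in DKO hearts, where 3.89% of all probes had separate groups. Atrial marker probes, *Nppa* among them, were 7 in number with 3 above background in each sham group. They summed to between 7802 and 18303 in sham DKO hearts, against 3045 and 8275 in sham CTL hearts. The smooth muscle and pericyte sums of the sham genotypes did not overlap (9907 to 10950.5 in sham DKO and 11453 to 13852 in sham CTL hearts). That list includes *Des*, which cardiomyocytes also express. Of 15 endothelial probes above background, 14 were negative (median -0.11). None of these markers passed the test, and their part in the members' differences was not tested. The median change of the members was -0.03, beside -0.00298 over all probes.

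Around the ribosome, the other proteins of mitochondrial gene expression had both directions of change after TAC as well, at the same scaling. Of all probes above background, 26.8% were higher and 23.4% lower in DKO hearts, and 22.2% were higher and 19.1% lower in CTL hearts. Of 39 probes for mitochondrial translation factors above background, 11 were higher and 14 lower in TAC DKO hearts, and 6 were higher and 10 lower in TAC CTL hearts. *Lrpprc*, which stabilizes mitochondrial messenger RNA, had a log2 fold change of -1.31 in DKO and -1.19 in CTL hearts, and its partner *Slirp* had -1.73 and -1.50. These are the probes with the largest change, and second probes had smaller ones (*Slirp* ILMN_2684667, -0.30 in DKO and -0.13 in CTL) or did not pass in either genotype (*Lrpprc*). The elongation factor *Gfm1* fell by 0.89 and 0.67 on its probe ILMN_1248254. Of 35 probes for ribosome assembly factors, 13 were higher and 8 lower in DKO and 10 were higher and 5 lower in CTL hearts, with *Mterf3* (-1.04 and -0.69) and *Mtg1* (-1.03 and -0.88) among the lower and the pseudouridine synthase *Trub2* (0.76 in both) among the higher. *Ptcd3*, a small subunit protein under another name, fell by 1.08 and 0.82. Of 22 probes for mitochondrial aminoacyl-tRNA synthetases, 5 were higher and 3 lower in DKO and 6 were higher and 2 lower in CTL hearts. Of 19 probes for transcription and replication of mitochondrial DNA, 4 were higher and 5 lower in DKO and 3 were higher and 4 lower in CTL hearts, and the single-strand binding protein *Ssbp1* had -1.16 and -0.88 on one probe and -0.02 and 0.01 on the other. *Gabpa*, the DNA-binding part of the ETS factor GABP, was at background in TAC hearts on probe ILMN_2758120, with a mean of 45.3 in TAC DKO against 74.9 in sham DKO hearts and of 50.9 in TAC CTL against 72.4 in sham CTL hearts, while 2 further probes did not pass. None of these lists held a member that differed between the genotypes at an adjusted p under 0.05.

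Complex I of the respiratory chain, which contains products of mitochondrial translation, moved mostly downward. Of all probes above background, 23.4% were lower in DKO and 19.1% in CTL hearts, and 26.8% and 22.2% were higher. Of 51 probes for its nuclear-encoded subunits above background, 6 were higher and 22 lower in TAC DKO hearts, and 2 were higher and 21 lower in TAC CTL hearts, with a median of -0.16 and -0.18, against 0.05 and 0.06 for the members. *Ndufa5* had a log2 fold change of -2.43 in DKO and -2.32 in CTL hearts on one probe and of 0.15 and 0.06 on the other. Cytosolic ribosomal proteins had 25 higher and 19 lower of 75 probes in DKO and 24 higher and 13 lower in CTL hearts. Markers of cell types moved along with the TAC comparison. Of 18 cardiomyocyte marker probes, 2 were higher and 10 lower in DKO and 1 was higher and 9 lower in CTL hearts. Their summed intensity lay between 162681 and 200424 in TAC DKO hearts, against 229748 and 242976 in sham DKO hearts, and between 174957 and 207517 in TAC CTL hearts, against 231414 and 245601 in sham CTL hearts. The sum of 14 smooth muscle and pericyte probes, 9 of them above background, lay between 13557.7 and 20119 in TAC DKO hearts, against 9907 and 10950.5 in sham DKO hearts, and between 13972 and 20824.6 in TAC CTL hearts, against 11453 and 13852 in sham CTL hearts. Since it includes *Des*, which cardiomyocytes also express, it does not stand for smooth muscle and pericytes alone. The sum of 20 fibroblast probes, 14 of them above background in each group, overlapped between TAC and sham hearts in both genotypes. Single probes did change. In TAC CTL hearts, 6 were higher (4 by more than 1.5-fold) and 1 lower of 15 fibroblast probes above background in at least 1 group. Of 15 endothelial probes 0 were higher and 5 lower there, and of 7 leukocyte probes 3 were higher and 1 lower. The sum of 4 red blood cell probes lay between 23067 and 27427.5 in TAC DKO hearts, against 12553 and 22237 in sham DKO hearts, and between 19352 and 24431.5 in TAC CTL hearts, against 7442 and 17138 in sham CTL hearts. The atrial sum lay between 25835 and 36152 in TAC DKO hearts, against 7802 and 18303 in sham DKO hearts, and between 9022 and 32998 in TAC CTL hearts, against 3045 and 8275 in sham CTL hearts. It includes *Nppa*, which the study found raised by TAC in ventricles, and so does not stand for atrial content. Of 5 atrial probes above background, 1 was higher and 0 were lower in TAC CTL hearts. The part of these shifts in the changes of the members was not tested.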

How the data were processed

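Ventricular RNA of 20 male mice was hybridized to Illumina mouse bead chips. The authors processed the arrays in GenomeStudio 2010.3 and deposited linear intensities, with background and normalization settings not given in the sources used here. Sorted values were equal within 0.2% for at least 97.6% of probes among sham and 99.9% among TAC arrays, and for at most 0.413% between the sets. The intensities were log2 transformed, quantile normalized over the 20 arrays and fitted with limma 3.58.1 in R 4.3.3, with 1 mean per group (16 residual and 6.64 prior degrees of freedom). P-values were two-sided and adjusted by Benjamini-Hochberg over all 45281 probes. "Higher", "lower", "rose" and "fell" of a tested member mean an adjusted p under 0.05, and a fold above 1.5 was a stricter call, taken with the first from the study's methods. Intensities are normalized values, and the number of arrays limits precision. Named were the members past both thresholds (at most 15) or, failing that, the 5 largest changes each way, up to 12 in a direction with 20 or more calls, and the 3 smallest interaction p. Members and gene lists were chosen with earlier results of these data known. The fit was tested on simulated data. Alternatives were the deposited values, median centring, an added constant of 32, a filter on dim probes, an intensity trend, 2-group fits, a replicate block, omission of each array and, chosen after seeing the data, subtraction of a constant from each array to equalize the receptor probes. Promoters were matched by gene identifier to RefSeq. For a member past 1.5-fold whose mean in 1 group was at background, the fold was bounded with that background.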

Additional observations from a re-analysis of the deposited data

Results flagged for a closer look

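Among 136 groups of arrays of the named members, 5 held a highest or lowest array whose gap to the nearest other exceeded Dixon's critical value, where chance flags about 1 in 20 groups. *Mrpl3* probe ILMN_1231390 had 287.7 on sham CTL replicate 4, against 691 to 796 on the other sham CTL arrays. *Mrpl52* had 1422 on the same array, against 950.3 to 972. *Mrps15* probe ILMN_1224268 had 304.9 on sham DKO replicate 2, against 383 to 389 on the others. *Mrpl51* probe ILMN_2645772 had 223.5 on sham DKO replicate 3, against 234 to 237. *Mrpl1* probe ILMN_2711966 had 783.1 on TAC DKO replicate 1, against 659 to 691. Without sham CTL replicate 4, the fall of *Mrpl52* in TAC CTL hearts kept its call.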

How the results depend on the processing

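The 25 falls of members after TAC that the naming rule chose (13 in DKO and 12 in CTL hearts) kept their direction and call in all 28 settings, whereas *Mrpl3* probe ILMN_2571191 did not pass with the deposited values (-0.14 in DKO). Median centring and background subtraction moved the members downward and so favoured falls. Falls named outside the rule or in other lists were not followed through all settings. The rises depended on the scaling. With the deposited values, members higher by more than 1.5-fold numbered 1 in TAC DKO and 0 in TAC CTL hearts, and 39 members were lower in TAC CTL hearts. With median centring, 22 of 33 rises in DKO and 20 of 30 in CTL hearts turned negative, 4 and 0 members were higher, 0 and 0 by more than 1.5-fold, and 79 and 68 were lower, 36 and 32 by more than 1.5-fold, with a member median of -0.32 in DKO and -0.30 in CTL hearts. *Mrpl1* probe ILMN_2711966 (-0.018) and *Mrpl12* (-0.0058) in DKO, *Mrps10* probe ILMN_2769630 (-0.0045) in CTL, and *Mrpl40* (-0.031 in DKO and -0.077 in CTL) were among those that changed sign. With a subtracted background, 15 and 12 members were higher, 1 and 0 by more than 1.5-fold, 17 in CTL were lower by more than 1.5-fold, and the median was -0.095 and -0.070. With 32 added, 1 member was higher by more than 1.5-fold in CTL. Between the genotypes after TAC, 3 members were lower with dim probes filtered and 0 with an intensity trend. Leaving out 1 array at a time gave between 0 and 3, with 0 without TAC CTL replicate 2 or 6 or TAC DKO replicate 1, 3 or 4. It gave between 1 and 5 members higher by more than 1.5-fold in TAC CTL hearts. *Mrpl3* probe ILMN_1231390 in sham hearts ranged between -0.15, without sham CTL replicate 4, and 0.34. The labels share replicate numbers. In their deviations from the group means, same-numbered DKO and CTL arrays correlated between 0.02 and 0.33 in sham and between -0.25 and 0.49 in TAC hearts. Of these pairs, 2 of 4 in sham and 4 of 6 in TAC hearts lay above 0.1. A DKO array correlated best with the CTL array of its own number in 2 of 4 and 3 of 6 cases. Whether the numbers pair the samples is not settled by these values, and the main fit used no pairing. With a replicate block, 2 members were lower in TAC DKO hearts and 4 were higher by more than 1.5-fold in TAC CTL hearts. The falls of *Mrpl18* probe ILMN_2823250, *Mrpl47* probe ILMN_1226238 and *Mrps15* probe ILMN_2593872 in DKO hearts are bounds, since their TAC DKO means were at background.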
